A study of Mus musculus with 88 samples.

Results

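The medial prefrontal cortex (mPFC) and the ventral hippocampus (vHPC) of control C57BL/6Crl (B6) mice were compared through the 17426 genes that were present in both regional expression tables, out of 18946 genes in the mPFC table and 19559 in the vHPC table. The animals were 8 week old males that served as controls for chronic social defeat stress. They spent the stress period next to other controls that they could not touch, and lived alone from then until dissection. They were not defeated, although the study's methods describe a social avoidance test of controls too, with an unfamiliar CD1 male as the target. Of 88 libraries in the series, 6 B6 control mPFC libraries and 6 B6 control vHPC libraries were used here, with 1 library per mouse and region, and 2 of these mice gave both regions. The 12 matching libraries of DBA/2Crl (D2) control males, an inbred strain kept in the same way, served only as a check. Strain names follow the sample labels, and the study's methods give both strains as NCrl substrains.

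Both regions are sheets of glutamatergic projection neurons with scattered GABAergic interneurons and glia. The neocortex arranges its projection neurons in layers that are specified by transcription factors such as Tbr1, Foxp2 and Fezf2. The hippocampus is built from the granule cells of the dentate gyrus and the pyramidal cells of the CA fields, each with its own transcription factors, adhesion molecules and receptors. Its ventral part is closely linked with anxiety and stress, as the mPFC is, and the hippocampus is known for its high content of mineralocorticoid receptor.

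All values below are deposited log2 CPM, where CPM is the read count of a gene scaled to the size of its library. The relative difference is the mean of the 6 mPFC libraries minus the mean of the 6 vHPC libraries, less the median of that difference over all shared genes, so that 0 stands for the typical gene, a positive value is higher in mPFC and a negative value is higher in vHPC. It is given ± its standard error over libraries. The mPFC libraries were made with the ScriptSeq kit and read from a single end, the vHPC libraries were made with the Nextera kit and read from both ends, and the tables were normalised separately. Region and library chemistry therefore cannot be told apart, and no p value was computed between the regions. A gene was counted as higher in a region only when the relative difference was at least 2 (a ratio of 4) and the 6 libraries of one region did not overlap the 6 of the other.

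By this rule 290 genes were higher in mPFC (1.66% of those compared) and 428 were higher in vHPC (2.46%) in B6 controls. In D2 controls the counts were 234 (1.34%) and 465 (2.67%). The genes counted in the same direction in both strains numbered 156 for mPFC (0.895%) and 295 for vHPC (1.69%). With a smaller difference of at least 1 (a ratio of 2) and no overlap, 1629 genes were higher in mPFC (9.35%) and 2042 were higher in vHPC (11.7%) in B6. Absence of overlap alone was common, at 5468 genes for mPFC and 5518 for vHPC. The standard deviation within a region was small in these batch-adjusted values, with a median of 0.13 in mPFC and 0.12 in vHPC. Region and library chemistry cannot be told apart in these counts either. For genes under the limit, absence of overlap is given below as description, and sets a gene little apart from others. The interquartile range over all genes ran from -0.52 to 0.49. Of the 718 genes counted in B6, 678 had the same sign in D2. In each region, the D2 libraries were made with the same kit as the B6 libraries. Agreement between the strains therefore cannot tell region from library chemistry.

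Among protein-coding genes counted in both strains with a mean of at least 3 in vHPC, the 8 with the largest differences in that direction included genes with known hippocampal or choroid plexus expression. Fibcd1, a marker of CA1 pyramidal cells (chromosome 2, 31813290 to 31846005, GRCm38), ranged from 1.32 to 2.002 (median 1.47) in mPFC and from 6.94 to 7.42 (median 7.13) in vHPC. Its relative difference was -5.69 ± 0.12, and -5.86 in D2. Hipk4, a protein kinase gene, ranged from -0.70 to 0.68 (median -0.04) in mPFC and from 5.495 to 5.68 (median 5.596) in vHPC, a difference of -5.66 ± 0.19. Neither gene came close to an overlap, and Hipk4 was near the lower end of the table in mPFC. The desmosomal genes Dsp (desmoplakin) and Dsc3 (desmocollin 3) were both among the largest, with -4.55 ± 0.30 and -4.23 ± 0.39, and D2 values of -3.505 and -4.50. Dsp is also a marker of dentate granule cells. Lrtm1, which encodes a leucine-rich repeat membrane protein, differed by -4.41 ± 0.23. For Cabp7, a neuronal calcium binding protein that was well detected in both regions, the mPFC libraries ranged from 3.39 to 4.01 (median 3.68) and the vHPC libraries from 7.72 to 8.10 (median 7.88), a difference of -4.26 ± 0.11 (-4.49 in D2). Ttr and Kl complete the set and are described with the choroid plexus below.

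In the direction of mPFC, the protein-coding genes with the largest differences in both strains were a mixed set. Penk, the precursor of the enkephalins, ranged from 5.25 to 6.74 (median 6.31) in mPFC and from 1.87 to 2.61 (median 2.19) in vHPC, a difference of 3.84 ± 0.29 (2.71 in D2). Pcp4, a calmodulin regulator of cortical projection neurons, ranged from 6.56 to 6.996 (median 6.79) in mPFC and from 2.8 to 3.34 (median 3.06) in vHPC, a difference of 3.69 ± 0.11 (3.997 in D2). Both are neuronal genes, and in neither did the regions overlap. Medag differed by 3.90 ± 0.12 and Dkkl1, a gene related to the dickkopf family, by 4.08 ± 0.20. The other 4 were Wdr89 (4.87 ± 0.12), Fen1 (4.75 ± 0.18), Ajm1 (4.43 ± 0.06) and the ribosomal protein gene Rpl38 (3.85 ± 0.13). For these 4, Medag and Dkkl1, B6 vHPC means were near the lower end of the table, from -0.78 for Fen1 to 0.59 for Ajm1. The sizes of their differences rest on these low values. For Fen1, a flap endonuclease of DNA replication, 84.2% of the exon length lay opposite exons of a gene on the other strand, and for Ajm1 91.0%. Rpl38, like most ribosomal protein genes, has processed pseudogenes among which reads may be split, so its value is uncertain too.

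Cortical identity genes were mostly higher in mPFC. Over the 3 cortical lists (neocortical transcription factors, upper layer markers and deep layer markers), 31 of 33 genes were in both tables, 8 were counted as higher in mPFC and 0 as higher in vHPC, against 1.66% and 2.46% of all genes. With a difference of at least 1, the counts were 15 and 2, against 9.35% and 11.7% of all genes. The median relative difference was 0.98 in B6 and 0.66 in D2, against 0 over all genes.

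Foxp2, a transcription factor of deep layer corticothalamic neurons (chromosome 6, 14901349 to 15441977), ranged from 5.46 to 5.92 (median 5.78) in mPFC and from 1.93 to 2.64 (median 2.39) in vHPC, and differed by 3.34 ± 0.13 (3.25 in D2). All of its mPFC libraries lay above all vHPC libraries. The transcription factors Mef2c (2.05 ± 0.11) and Pou3f2 (2.07 ± 0.08) were also counted. Tbr1, which directs early-born deep layer neurons, did not overlap between regions but stayed under the limit, at 1.84 ± 0.17, with mPFC values from 5.35 to 6.26 (median 5.96) and vHPC values from 3.63 to 4.43 (median 3.94). The upper layer regulators Cux2 (1.37 ± 0.14) and Rorb (1.302 ± 0.07) were also without overlap and under the limit. Fezf2, the selector of corticospinal neurons, differed by 0.38 ± 0.11 in B6 and by -0.35 in D2, and its libraries overlapped. Nr4a2 (-1.10 ± 0.15) and Bhlhe22 (-1.36 ± 0.08) lay on the vHPC side. The neocortical transcription factors were thus split in sign, 11 above 0 and 6 below.

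Among layer markers, Lamp5, a membrane protein of upper layer and neurogliaform cells, had the largest difference after Foxp2, at 3.16 ± 0.12 (3.32 in D2). Its mPFC libraries ranged from 6.78 to 7.13 (median 6.99) and its vHPC libraries from 3.303 to 4.02 (median 3.83). Of the upper layer list, 2 of 10 genes were counted, against 1.66% of all genes. The other was the Wnt agonist Rspo1 at 2.43 ± 0.17, which had low values in both regions and reached 1.74 in D2. Of the deep layer list, 3 of 13 were counted, against that same share of all genes. These were Foxp2, the synaptotagmin Syt6 (2.76 ± 0.17, D2 1.88) and Tshz2 (2.03 ± 0.17, D2 1.98). Deptor (1.45 ± 0.15), Cplx3 (1.39 ± 0.11) and Ccn2 (1.23 ± 0.13), markers of layer 5 and of the subplate layer, were higher in mPFC without overlap but under the limit. In D2 the deep layer list had a median of -0.05, against 0.38 in B6.

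**Figure D1:**
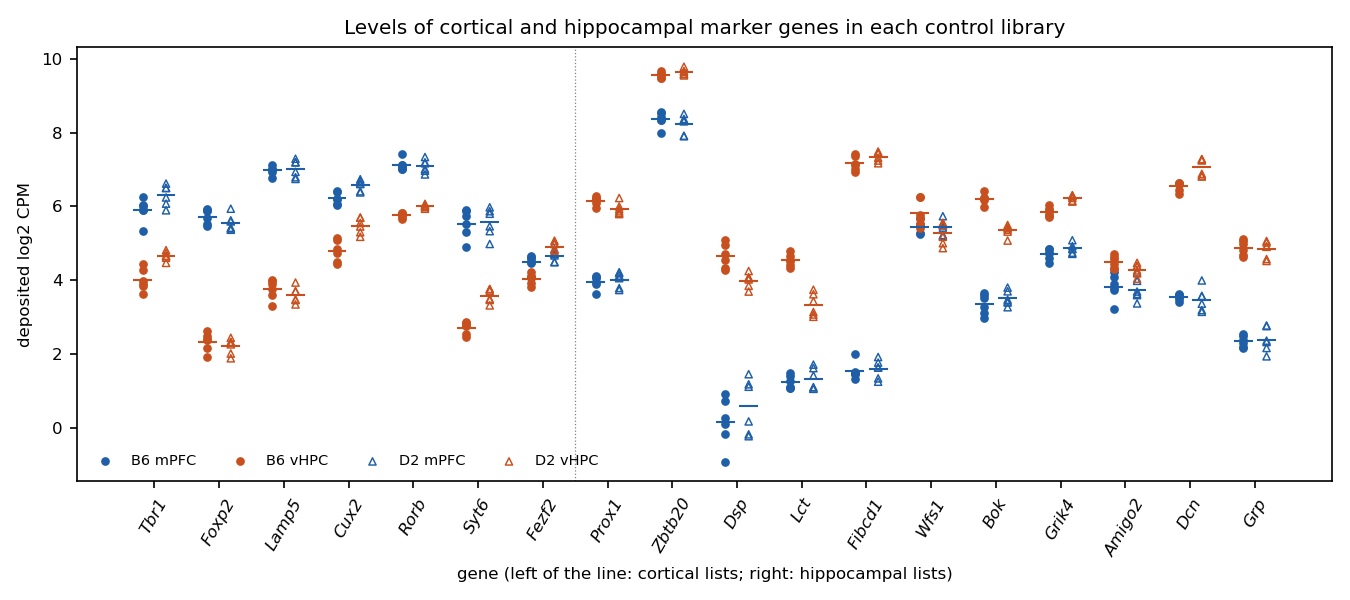
Deposited log2 CPM (vertical axis) of 18 marker genes in every control library, with filled circles for B6, open triangles for D2, blue for mPFC, orange for vHPC and short lines for the mean of 6 libraries. The regions are separated for Foxp2, Lamp5 and Syt6 on one side and for Prox1, Dsp and Fibcd1 on the other, while Fezf2 and Wfs1 overlap in B6.

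Hippocampal identity genes were mostly higher in vHPC. Over the 9 hippocampal lists, 47 of 57 genes were in both tables, 9 were counted as higher in vHPC and 0 as higher in mPFC, against 2.46% and 1.66% of all genes. With a difference of at least 1, 22 were higher in vHPC and 2 in mPFC, against 11.7% and 9.35%. The median was -0.73 in B6 and -0.79 in D2. The lists were uneven, and some had B6 medians near 0. Mossy cell markers had a median of -0.05 (-0.94 in D2) and Cajal-Retzius cell markers -0.15 (0.44 in D2), over 3 genes each. Subiculum markers, also 3 genes, had a median of -0.64 (-0.50 in D2).

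Prox1, the homeobox gene that maintains dentate granule cell identity (chromosome 1, 190118035 to 190170714), ranged from 3.63 to 4.11 (median 4.0) in mPFC and from 5.96 to 6.27 (median 6.19) in vHPC, a difference of -2.26 ± 0.09 (-2.02 in D2). Zbtb20, a zinc finger repressor that specifies hippocampal pyramidal neurons, was abundant in both regions and differed by -1.25 ± 0.09, with mPFC values from 7.99 to 8.56 (median 8.39) and vHPC values from 9.47 to 9.66 (median 9.57). The regions did not overlap in either gene, but only Prox1 passed the limit. The POU factor Pou3f1, a CA1 gene, was counted at -2.135 ± 0.08 (-2.12 in D2). Its exons are rich in GC, and against genes of like GC content and length the value was -1.57, under the limit. Emx2, a homeobox gene of the medial pallium, went the other way, at 1.81 ± 0.08 in B6 and 0.67 in D2.

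The dentate gyrus list had the strongest median of the hippocampal fields, at -1.95. In both strains 4 of its 9 genes in both tables were counted, against 1.69% of all genes. Besides Dsp and Prox1 these were Lct (lactase), with mPFC values from 1.09 to 1.49 (median 1.186) and vHPC values from 4.34 to 4.79 (median 4.53), at -3.36 ± 0.10, and Tdo2 (tryptophan 2,3-dioxygenase) at -3.35 ± 0.37. In D2 both were smaller, -2.11 and -2.126. Plk5 came close, at -1.95 ± 0.11. Stxbp6 (0.98 ± 0.07) and Npnt (0.996 ± 0.08) lay on the mPFC side. C1ql2, a secreted protein of mossy fibre synapses, was in the vHPC table and not in the mPFC table, with levels from 6.08 to 6.54 (median 6.28) in B6 vHPC, so it has no difference here.

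In the CA1 list 2 of 6 genes were counted, Fibcd1 and Pou3f1, against 2.46% of all genes. All 6 lay below 0, and the list median was -1.15. Wfs1, often used to outline CA1, overlapped between regions at -0.42 ± 0.16 (0.06 in D2), with mPFC values from 5.24 to 5.696 (median 5.48) and vHPC values from 5.403 to 6.26 (median 5.71). Of the CA2 list 0 of 6 were counted, and 3 were higher in vHPC by at least 1 (11.7% of all genes). The list median was -1.06, and the largest difference was that of the calcium binding protein Necab2, -1.97 ± 0.08. Amigo2, a CA2 adhesion molecule, differed by -0.73 ± 0.16 without overlap. In the CA3 list 1 of 5 genes was counted, the apoptosis regulator Bok at -2.91 ± 0.13, which reached -1.94 in D2. The CA3 list median was near 0, at -0.18 in B6 and 0.13 in D2, and 2 of the 5 genes lay above 0. Grik4, the kainate receptor subunit enriched in CA3, ranged from 4.46 to 4.85 (median 4.75) in mPFC and from 5.71 to 6.03 (median 5.85) in vHPC, a difference of -1.203 ± 0.08. In the list of mossy cell markers, Calb2, Drd2 and Nmb overlapped between regions.

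Genes known to mark the ventral pole of the hippocampus had a median of -1.32 over the 8 that were compared. The small proteoglycan Dcn ranged from 3.42 to 3.63 (median 3.57) in mPFC and from 6.33 to 6.64 (median 6.61) in vHPC, a difference of -3.05 ± 0.06 (-3.68 in D2), and Grp, a bombesin-like peptide, ranged from 2.174 to 2.54 (median 2.35) in mPFC and from 4.63 to 5.13 (median 4.90) in vHPC, a difference of -2.596 ± 0.10 (-2.55 in D2). Both were counted in both strains. Dcn is also made by meningeal fibroblasts. The other 5 markers of those cells in both tables were not counted, with differences from -1.12 for Lum to 0.06 for Col1a1, with a spread between vHPC libraries of 0.31 for Dcn and 1.32 for Col1a1. The part of such cells in the Dcn value was not tested. Htr2c and Trhr, receptors with ventral expression, differed by -1.84 ± 0.23 and -1.39 ± 0.15, while Lypd1 (0.65 ± 0.07) lay on the mPFC side.

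**Figure D2:**
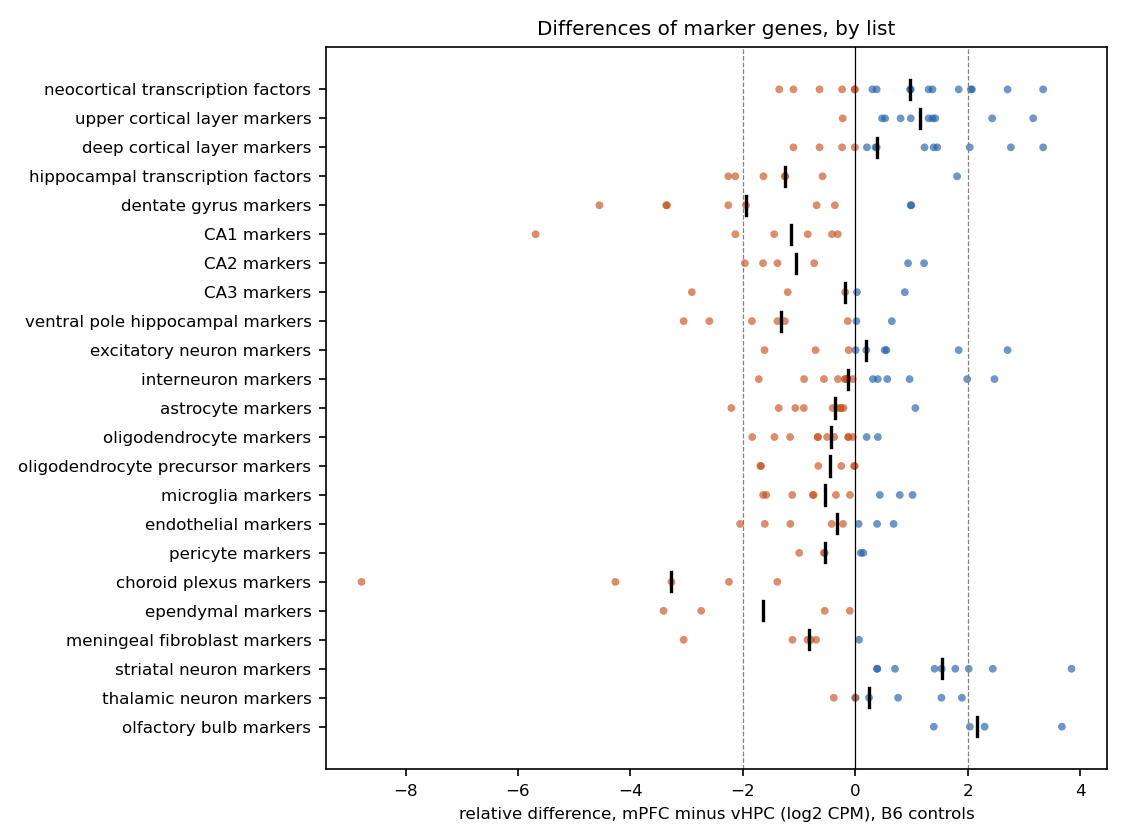
Relative difference between mPFC and vHPC in B6 controls (horizontal axis, log2 CPM) of each marker gene, one row per list, with blue points above 0, orange points below 0, black bars for list medians and dashed lines at 2 and -2. The cortical, striatal and olfactory bulb lists have medians above 0 and the dentate gyrus, CA1, ventral pole and choroid plexus lists have medians under -1.

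Lists of general neuronal markers had medians near 0, at 0.19 for the excitatory list, while single members differed by more. Gad1, the GABA synthesising enzyme, ranged from 7.29 to 8.138 (median 8.04) in mPFC and from 7.90 to 8.13 (median 7.97) in vHPC, and the regions overlapped, at -0.19 ± 0.15 (-0.24 in D2). The interneuron list had a median of -0.14, with Pvalb (0.40 ± 0.09) and Sst (-0.14 ± 0.16) both overlapping. Neuropeptide Y (Npy) was the 1 gene of 15 in that list that was counted, against 1.66% of all genes towards mPFC. Npy had mPFC values from 6.35 to 6.92 (median 6.63) and vHPC values from 3.95 to 4.22 (median 4.08). The difference was 2.47 ± 0.10, and it reached 1.96 in D2. Vip was higher in mPFC without overlap at 0.96 ± 0.07, and Htr3a was higher in vHPC at -1.72 ± 0.06. Among excitatory markers the vesicular glutamate transporter gene Slc17a7 was higher in vHPC without overlap, at -1.62 ± 0.07 (-1.68 in D2), and -1.07 against genes of like GC content and length. Camk2a (-0.12 ± 0.09) and Neurod6 (0.19 ± 0.07) overlapped. In bulk tissue, fewer cells of a type and less RNA per cell cannot be told apart, here and in all lists below.

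Glial and vascular markers leaned towards vHPC in B6. Over the 6 lists, 14 of 51 genes were higher in vHPC and 2 higher in mPFC with a difference of at least 1, against 11.7% and 9.35% of all genes. The median was -0.40 in B6 and -0.31 in D2. The vascular lists did not lean this way in D2. Endothelial markers had a median of -0.32 in B6 and 0.29 in D2, and pericyte markers -0.54 and 0.04. At the larger limit 2 were counted towards vHPC (3.92%, against 2.46% of all genes) and 0 towards mPFC (1.66% of all genes). These were the astrocytic filament gene Gfap and the tight junction gene Cldn5. Gfap ranged from 5.93 to 6.62 (median 6.42) in mPFC and from 8.37 to 8.60 (median 8.56) in vHPC, a difference of -2.21 ± 0.12 (-1.36 in D2). Cldn5 ranged from 3.88 to 4.48 (median 4.31) in mPFC and from 6.09 to 6.379 (median 6.28) in vHPC, a difference of -2.05 ± 0.11 (-1.75 in D2). Neither was counted in D2, and neither passed the limit against genes of like GC content and length, at -1.64 and -1.55. Without mPFC replicate 6, Cldn5 stood at -1.98. Of the other astrocyte markers, Aldoc (-1.36 ± 0.05) and Fgfr3 (-1.07 ± 0.07) were higher in vHPC by at least 1 and under the limit, Aqp4 stood at -0.27 ± 0.07 and Slc1a2 at -0.32 ± 0.06, and the gap junction gene Gja1 was higher in mPFC at 1.07 ± 0.06.

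Myelin genes were abundant in both regions. Mbp ranged from 8.997 to 9.94 (median 9.57) in mPFC and from 9.99 to 10.204 (median 10.09) in vHPC, a difference of -0.67 ± 0.15, without overlap. The lowest mPFC libraries were replicates 2 and 6, which were also the lowest for striatal genes below. With only these 2 mPFC libraries Mbp stood at -1.09 and the median of the oligodendrocyte list at -0.97, and the part of such tissue in these values was not tested. The oligodendrocyte list had a median of -0.44 in B6 and -0.04 in D2, with the myelin glycoprotein gene Mag furthest from 0 at -1.83 ± 0.17. The complement genes C1qa (-1.123 ± 0.09), C1qb (-1.64 ± 0.08) and C1qc (-1.59 ± 0.08), made by microglia, were higher in vHPC without overlap, while the microglial receptor gene Cx3cr1 overlapped between regions at -0.10 ± 0.04 and P2ry12 was higher in mPFC at 0.79 ± 0.08. The microglial list as a whole had a median of -0.54.

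Markers of neighbouring tissue differed strongly between libraries of a region. Ttr (transthyretin, the main secreted protein of the choroid plexus) was 6.04, 6.75, 10.88, 4.21, 10.49 and 9.26 in vHPC replicates 1 to 6, and ranged from -1.801 to 0.17 (median -0.82) in mPFC. Its difference of -8.78 ± 1.1 was the largest of any gene towards vHPC, and its standard error was large too. Replicates 3, 5 and 6 were the highest in every one of the 8 listed choroid plexus genes, and replicate 4 was the lowest in each. Kl (Klotho) ranged from 4.05 to 6.91 (median 5.16) in vHPC, at -4.27 ± 0.49, and Kcnj13 was counted at -2.25 ± 0.41. Clic6 (-3.27 ± 1.08) and Aqp1 (-1.39 ± 0.89) overlapped the mPFC libraries at their lowest values. The summed CPM of the 5 choroid plexus genes in both tables ran from 6.10 to 8.23 in mPFC and from 39.5 to 2055 in vHPC. Ependymal genes also leaned to vHPC, with Foxj1, the regulator of motile cilia, at -2.74 ± 0.30 and Ccdc153 at -3.41 ± 0.67, both counted in both strains, with a spread of 1.06 for Foxj1 and 0.71 for Ccdc153 between vHPC libraries. In mPFC both were lowest in replicates 2 and 6, where Ccdc153 was -2.70 and -2.52 and ran up to 0.92 in the others, and with only these 2 mPFC libraries Ccdc153 stood at -5.44 and Foxj1 at -3.51. Dynlrb2, a dynein light chain gene of the same list, overlapped at -0.10 ± 0.31.

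The 3 vHPC libraries rich in Ttr were the 3 highest for 27 of the 428 genes counted towards vHPC (6.31%), against 7.52% of all genes. These included the prolactin receptor gene Prlr (-4.2 ± 0.52), the collagen gene Col8a2 (-3.76 ± 0.44) and coagulation factor gene F5 (-3.59 ± 0.80). In D2, Prlr stood at -2.54 and was counted, while Col8a2 (-1.69) and F5 (0.53) were not. Without those 3 libraries, a choice made after the values were seen, 437 genes were higher in vHPC, of which 405 were among the 428, and 314 were higher in mPFC. Ttr then stood at -6.52 and Kl at -3.37. Fewer libraries make the absence of overlap easier to meet for any gene, so these counts say little about the share of choroid plexus tissue in the differences, which was not tested.

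Striatal and olfactory bulb genes set the mPFC libraries apart from each other in the same way. Sp8, a zinc finger gene of olfactory bulb interneurons, was 3.98, 1.2, 4.02, 3.05, 3.88 and 4.09 in mPFC replicates 1 to 6, and ranged from -0.90 to 0.16 (median -0.40) in vHPC, a difference of 3.67 ± 0.49. Th, Cdhr1 and Doc2g had the same library at their lowest, and Eomes, which was in the mPFC table and not in the vHPC table, ran from -1.82 in replicate 2 to 4.405. All 4 olfactory genes in both tables lay above 0, with a median of 2.167, and Sp8 alone was counted. All 9 striatal genes lay above 0, with a median of 1.53 in B6 and 0.93 in D2. Of these 3 were counted, against 1.66% of all genes, among them Penk and the phosphatase inhibitor gene Ppp1r1b (2.01 ± 0.27). Replicates 2 and 6 were the lowest for Penk, Drd1, Drd2, Adora2a and Rgs9. With only these 2 mPFC libraries, again chosen after the values were seen, Penk differed by 3.07, and the median of the striatal list was 0.06. On that basis 309 genes were higher in mPFC and 501 in vHPC. The share of such tissue in the other differences was not tested.

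**Figure D3:**
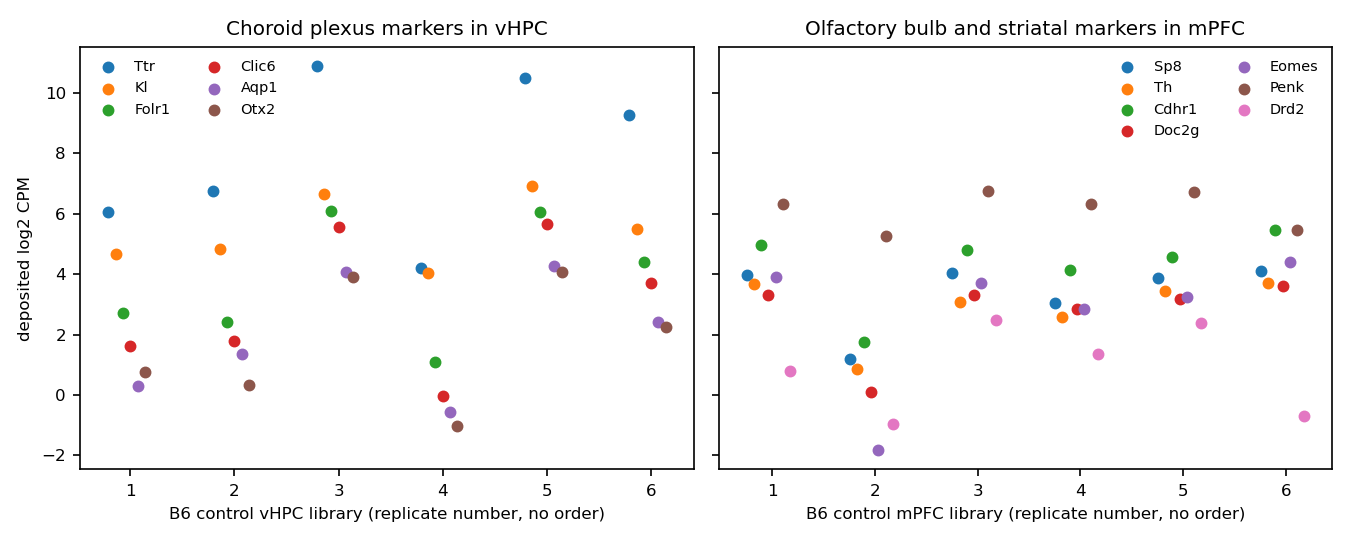
Deposited log2 CPM (vertical axis) of choroid plexus genes in the 6 B6 control vHPC libraries (left) and of olfactory bulb and striatal genes in the 6 B6 control mPFC libraries (right), with one colour per gene. The choroid plexus genes are together high in vHPC replicates 3, 5 and 6, the olfactory genes together low in mPFC replicate 2, and Drd2 low in mPFC replicates 2 and 6.

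Receptor families and their ligands had members on both sides. Over the 17 lists, 110 of 130 genes were in both tables. Of these, 4 (3.64%) were counted as higher in mPFC and 7 (6.36%) as higher in vHPC, against 1.66% and 2.46% of all genes. With a difference of at least 1 the counts were 15 and 25, or 13.6% and 22.7% of the members against 9.35% and 11.7% of all genes. The median was -0.20.

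The corticosteroid receptor genes Nr3c2 and Nr3c1 lay on opposite sides of 0, Nr3c1 by little. Nr3c2, the mineralocorticoid receptor, ranged from 6.10 to 6.48 (median 6.29) in mPFC and from 7.77 to 7.98 (median 7.86) in vHPC, a difference of -1.63 ± 0.06 (-1.65 in D2). Nr3c1, the glucocorticoid receptor, ranged from 7.66 to 7.90 (median 7.79) in mPFC and from 7.18 to 7.43 (median 7.37) in vHPC, a difference of 0.39 ± 0.05 (0.43 in D2). Neither passed the limit. Their libraries did not overlap, which held for 5468 genes towards mPFC and 5518 towards vHPC. The Nr3c1 value lay within the interquartile range over all genes (-0.52 to 0.49). The value for Nr3c1 was 0.08 against genes of like GC content and length, while that for Nr3c2 was -1.63. The progesterone receptor gene Pgr was higher in mPFC at 0.70 ± 0.10.

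Of the corticotropin-releasing hormone system, the peptide gene Crh was counted towards mPFC in both strains. It ranged from 3.105 to 3.51 (median 3.42) in mPFC and from 0.68 to 1.36 (median 1.2) in vHPC, a difference of 2.19 ± 0.13 (2.68 in D2). Its receptor gene Crhr1 overlapped at 0.38 ± 0.08 (-0.10 in D2), and the binding protein gene Crhbp was higher in vHPC at -0.74 ± 0.09. Of the opioid genes beside Penk, Oprk1, the kappa receptor, ranged from 3.99 to 4.32 (median 4.25) in mPFC and from 1.67 to 2.19 (median 1.78) in vHPC, a difference of 2.28 ± 0.10 (2.63 in D2, and 1.96 against genes of like GC content and length), and its ligand precursor Pdyn differed by 1.73 ± 0.10. The mu receptor gene Oprm1 overlapped at -0.25 ± 0.12, and the nociceptin receptor gene Oprl1 lay on the vHPC side at -0.86 ± 0.08.

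Serotonin receptors spread from -3.39 to 1.605. Htr4, a receptor coupled to stimulation of adenylyl cyclase, ranged from 1.49 to 2.42 (median 2.15) in mPFC and from 5.14 to 5.47 (median 5.33) in vHPC, a difference of -3.32 ± 0.16 (-3.601 in D2). Htr5b ranged from -0.92 to 0.40 (median -0.01) in mPFC and from 3.05 to 3.596 (median 3.17) in vHPC, a difference of -3.39 ± 0.22 (-2.71 in D2). Both were counted in both strains, and Htr6 was counted in B6 (-2.11 ± 0.15, D2 -1.29). Htr2c ranged from 4.11 to 5.39 (median 4.41) in mPFC and from 6.15 to 6.75 (median 6.28) in vHPC, without overlap, and choroid plexus cells are a known source of this receptor. It stood at -2.16 against genes of like GC content and length and at -2.29 with only mPFC replicates 2 and 6, past the limit in both, and at -1.72 without the 3 vHPC libraries rich in Ttr. Htr1a, the inhibitory autoreceptor and heteroreceptor, differed by -0.57 ± 0.10 (-0.54 in D2). In the direction of mPFC, Htr2a, the main excitatory cortical serotonin receptor, ranged from 4.90 to 5.44 (median 5.08) in mPFC and from 3.71 to 4.03 (median 3.85) in vHPC, a difference of 1.193 ± 0.10 (1.51 in D2), and Htr1f differed by 1.605 ± 0.07.

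Adrenergic receptors also went both ways. Adra1d (-2.51 ± 0.09) and Adra2c (-2.40 ± 0.09) were counted towards vHPC in both strains, with D2 values of -2.105 and -2.70. Adra2c, an inhibitory receptor with GC-rich exons, stood at -1.83 against genes of like GC content and length. Adra1b (1.97 ± 0.11) and Adra1a (1.28 ± 0.07) were higher in mPFC, without overlap and under the limit. Dopamine receptors were not counted. Drd1 differed by 1.53 ± 0.26, and by 0.86 with only mPFC replicates 2 and 6. Drd2 differed by 1.78 ± 0.62 in B6 and by -1.32 in D2, with mPFC values from -0.95 to 2.47 (median 1.08) and vHPC values from -1.40 to -0.57 (median -0.87), and its libraries overlapped in B6. With only mPFC replicates 2 and 6, Drd2 differed by 0.06. Of the muscarinic receptors, Chrm2 was higher in mPFC at 1.62 ± 0.12 (1.79 in D2), with mPFC values from 5.54 to 6.26 (median 5.96) and vHPC values from 4.168 to 4.34 (median 4.28). The nicotinic subunit gene Chrna7 was higher in vHPC at -1.57 ± 0.08 (-1.28 in D2).

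Peptide receptors included some of the clearest differences. Cckbr, the cortical cholecystokinin receptor, ranged from 5.79 to 6.18 (median 5.99) in mPFC and from 2.77 to 3.57 (median 3.32) in vHPC, a difference of 2.73 ± 0.15, and it stayed just under the limit in D2 with 1.998 after rounding. Npy2r, the presynaptic receptor for neuropeptide Y, ranged from 2.22 to 3.43 (median 2.81) in mPFC and from 5.67 to 5.94 (median 5.72) in vHPC, a difference of -3.02 ± 0.18 (-3.148 in D2). Npy and Npy2r thus differed in opposite directions, while Npy1r overlapped at -0.21 ± 0.06. Tacr3, the neurokinin B receptor, differed by -3.17 ± 0.29 (-2.65 in D2). The somatostatin receptor genes Sstr1 (-1.43 ± 0.11) and Sstr4 (-1.91 ± 0.09) were higher in vHPC without overlap.

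The subunits of glutamate-gated channels and of GABA receptors were near the background of all genes. None of the 29 AMPA, NMDA, kainate and GABA subunit genes compared was counted, 3 were higher in mPFC and 5 in vHPC with a difference of at least 1 (9.35% and 11.7% of all genes), and the median was -0.11. Gria1, the AMPA subunit most linked with hippocampal plasticity, ranged from 8.76 to 8.97 (median 8.85) in mPFC and from 9.83 to 10.08 (median 9.91) in vHPC, a difference of -1.138 ± 0.05 (-1.37 in D2). Gria3 went the other way, at 1.131 ± 0.04, and Gria2 overlapped at -0.11 ± 0.05. Gabra5, the subunit of extrasynaptic hippocampal GABA receptors, ranged from 5.83 to 5.99 (median 5.93) in mPFC and from 7.1 to 7.39 (median 7.28) in vHPC, a difference of -1.41 ± 0.05 in B6 but -0.42 in D2. Gabra3 was higher in mPFC at 1.45 ± 0.06. Among NMDA subunits Grin1 lay at 0.78 ± 0.06 and Grin2a at -0.65 ± 0.05, both without overlap, and Grin2b overlapped at -0.18 ± 0.05. Of the metabotropic receptors, Grm8 (1.72 ± 0.08) was the one furthest from 0.

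**Figure D4:**
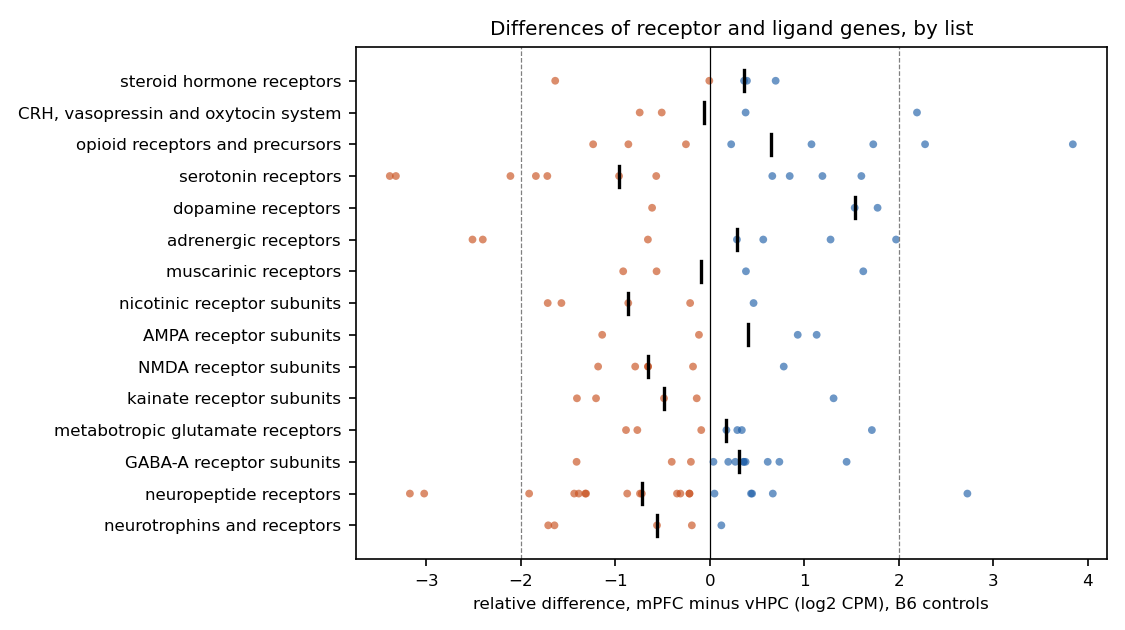
Relative difference between mPFC and vHPC in B6 controls (horizontal axis, log2 CPM) of each receptor or ligand gene, one row per list, with blue points above 0, orange points below 0, black bars for list medians and dashed lines at 2 and -2. Serotonin and neuropeptide receptors spread past both -2 and 1, while AMPA, NMDA, kainate and GABA-A subunits lie between -1.41 and 1.45.

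The difference moved with general properties of genes as well. By quartile of exon GC content, the median relative difference went from 0.30 in the lowest quartile to 0.16, -0.10 and -0.49 in the highest, with 0.35 and -0.60 at the ends in D2. Across the 17351 genes with a GC value, Spearman's rho was -0.37 in B6 and -0.45 in D2, a description over genes of the same libraries. By quartile of exon length the medians stayed between -0.07 and 0.08, but the share of genes counted went from 3.32% in the shortest quartile to 0.761% in the longest towards mPFC, and from 3.48% to 1.22% towards vHPC. These median shifts are under the limit of 2, but genes near the limit crossed it when like genes were compared, as given next. They weigh more on differences of 1 or less. Their part in single values was not tested beyond the comparison within bins. When the constant was taken among genes of like GC content and length, 294 genes were higher in mPFC (225 of them among the 290) and 382 in vHPC (325 of them among the 428).

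Overlap with a gene on the other strand moved with the difference too. ScriptSeq libraries keep the strand of the RNA and Nextera libraries do not. Of the 148 genes with over 50% of their exon length opposite exons of another gene, 21.6% were counted towards mPFC and 2.70% towards vHPC, with a median of 0.99, against 1.66% and 2.38% of the 12403 genes with no such overlap. Fen1, Ajm1 and Ikzf5 (2.88 ± 0.08) were in this class. Of 391 genes annotated as antisense RNAs, 12.0% were counted towards vHPC and 2.05% towards mPFC. Reads of a gene and its antisense partner cannot be told apart without strand, so these genes are uncertain, and the part of strand in their differences was not tested. Without all genes that had any opposite-strand overlap, 208 were higher in mPFC and 296 in vHPC.

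Short structured RNAs were another such class. Of 47 small nucleolar RNAs, 34.0% were counted towards mPFC and 12.8% towards vHPC. The Y RNA genes Rny1 (5.27 ± 0.47) and Rny3 (5.43 ± 0.37), named here after their values were seen, were among the largest differences towards mPFC in both strains. Of 874 processed pseudogenes, 6.06% were counted towards mPFC and 3.32% towards vHPC. Of the 12 reference genes often used as stable controls, Rplp0, a ribosomal protein gene with pseudogene copies, was counted towards vHPC at -2.31 ± 0.06, and -1.02 in D2. The other 11 were not counted, with Ppib at 0.96 ± 0.06 and Ywhaz at 0.08 ± 0.04. The list median was -0.08. Among haemoglobin genes, Hba-a1 was counted towards mPFC at 2.227 ± 0.18 while its near-identical copy Hba-a2 stood at -0.53 ± 0.31, so the reads of this pair may be split differently in the tables, and their values are uncertain.

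**Figure D5:**
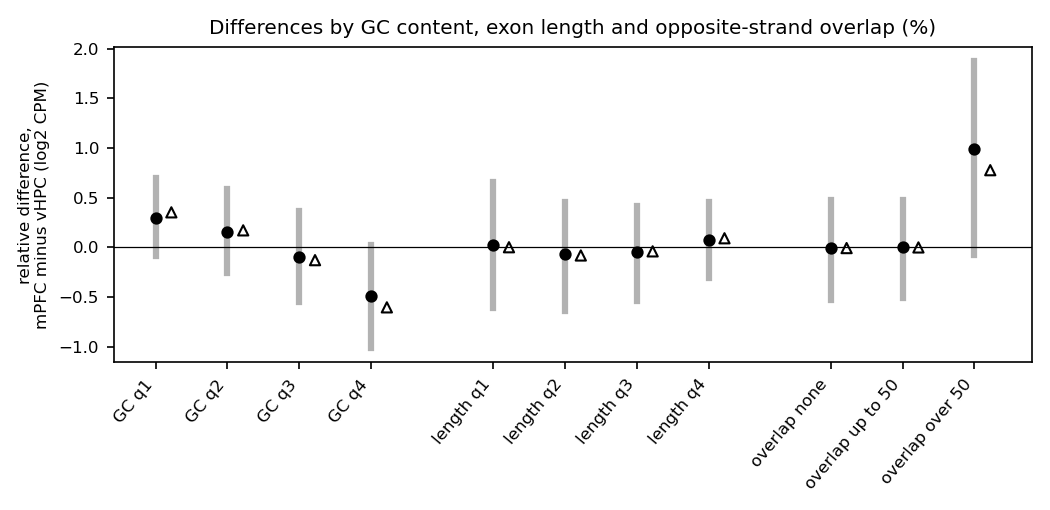
Relative difference between mPFC and vHPC (vertical axis, log2 CPM) by quartile (q1 lowest to q4 highest) of exon GC content and of exon length, and by the percent of exon length opposite another gene's exons; filled circles are B6 medians, grey bars the interquartile range in B6 and open triangles D2 medians. Medians go from 0.30 to -0.49 with GC content, stay within -0.07 and 0.08 with length, and reach 0.99 for genes with over 50% overlap.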

How the data were processed

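RNA came from bulk tissue depleted of ribosomal RNA. Per the study's methods, reads were aligned with STAR to GRCm38 and counted over exons with HTSeq after removal of duplicate reads; whether counting used strand is not given in the sources used here. The authors filtered low genes (a minimum of 1 CPM in 6 or more samples of a region), transformed the counts with voom and adjusted for library batches with ComBat, in each region on its own, and deposited the result as log2 CPM. Depth per library cannot be recovered from such values. The study lists the number of analysed reads per sample, but the values here were not set against it. The table of another region was not used.

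The tables were joined on Ensembl identifiers, and symbols, exon length, GC content and strand overlap were taken from GENCODE M21 (GRCm38), which matched 99.6% of shared genes. Groups followed the labels. The constant removed was 0.06 in B6 and 0.10 in D2. The 6 B6 mPFC libraries came from 5 preparation batches and the 6 vHPC libraries from 3. The authors had already adjusted the values for batch, and whether batch effects remain was not tested. Pearson correlation between libraries was at least 0.986 within B6 groups and between 0.91 and 0.92 across regions. No test was run across the tables, since they were normalised separately and made with different kits.

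Genes named are the 8 protein-coding genes with the largest difference in each direction among those counted in both strains with a mean of at least 3 in the higher region, the 2 largest counted genes of each list in each direction, and a fixed set of anchors; a few of these are not reported here, and others were named for context and, where said, after their values were seen. The 45 lists (335 genes, 298 of them in both tables) and all comparisons were chosen with earlier results of these data known. The 2 B6 mice with both libraries were compared alone; their deviations from the group means did not move together across regions (Pearson's r of -0.02 and 0.04 over genes), after batch adjustment. Alternatives were other scalings, a pseudocount of 1 CPM, a filter on low values, other limits, each library left out and D2 in place of B6. The counting was tested on simulated data. Computation used Python with NumPy, pandas and Matplotlib.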

Additional observations from a re-analysis of the deposited data

Results flagged for a closer look

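In the 272 groups of 6 libraries looked at (68 named genes in 2 regions and 2 strains), 13 had a highest or lowest library far from the other 5 by Dixon's criterion, which flags about 1 in 20 groups by chance. The 13 are about as many as that rate gives, so a single flag carries little weight. In D2 vHPC, replicate 2 stood above the rest for Ttr (8.84), Kl (5.72) and the ependymal gene Foxj1 (2.89). The spread of these genes in D2 vHPC rested mostly on that library. Replicate 5 of the same group was lowest for Cabp7 (8.00) and Oprm1 (3.21). In D2 mPFC, replicate 6 was highest for the dopamine receptor gene Drd1 (5.36), replicate 1 was highest for Lrtm1 (0.64) and replicate 4 lowest for Nr3c1 (7.58). In B6 mPFC, replicate 2 was lowest for Sp8 (1.2) and Tacr3 (-0.95) and highest for Rorb (7.43), and replicate 5 was highest for Fibcd1 (2.00) and lowest for Fezf2 (4.07).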

How the results depend on the processing

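On log2(CPM + 1), which shrinks the differences of genes with low values, 147 genes were higher in mPFC and 254 in vHPC in B6, and 98 and 176 in both strains; of the named genes Rspo1, Pou3f1, Cldn5, Hba-a1 and Crh lost the call. A limit of 1 gave 1629 and 2042 in B6 and 1054 and 1605 in both strains, and a limit of 3 gave 67 and 133, and 37 and 100. Under every other alternative run, the 4 counts stayed within 1.5 times the reported ones. Leaving out each B6 library in turn gave 282 to 301 genes higher in mPFC and 410 to 440 higher in vHPC, and 154 to 159 and 291 to 305 in both strains. Among named counted genes, none turned its direction under any alternative. With the constant taken within bins of exon length and GC content, 5 lost the call (Pou3f1, Gfap, Cldn5, Oprk1 and Adra2c) and Tbr1, Htr2c and Drd2 gained it. With no constant removed, Cldn5 lost it at -1.99. On the replicate block, meaning the 2 B6 mice with both libraries, 257 genes were higher in mPFC and 423 in vHPC, and genes such as Pou3f1, Cldn5 and Hba-a1 fell under the limit. Depth was not taken into account. Genes near the lower end of the tables, such as Ccdc153, Dsc3 and Drd2, had large errors.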

Other observations

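Immediate early genes, which neurons switch on within minutes of activity, were listed after their values were seen. Of 16 in both tables, 4 were counted towards mPFC in B6 and 0 towards vHPC, against 1.66% and 2.46% of all genes, and 0 in either direction in both strains, against 0.895% and 1.69%. Because of how the list was chosen, its counts are description and cannot be weighed against those shares. Npas4 averaged 4.14 in B6 mPFC and 1.33 in B6 vHPC, a difference of 2.75 ± 0.18, against 0.46 in D2. Fos differed by 2.596 ± 0.23 in B6 and 1.02 in D2, Fosb by 2.06 ± 0.15 and 0.18, and Egr2 by 3.199 ± 0.14 and 1.66. Egr1 differed by 1.97 ± 0.19 and 1.86, and Junb lay on the vHPC side in both (-0.61 ± 0.08 and -1.45). The list median was 0.70 in B6 and 0.09 in D2. The difference between the strains was not tested. B6 and D2 vHPC libraries shared 0 preparation batches, and the values were batch-adjusted, so strain and vHPC batch cannot be told apart, here and below.

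Some large B6 differences had no counterpart in D2. Among protein-coding genes with a mean of at least 3 in a region, 22 were counted in B6 with a D2 difference under 1 in size. Fam205c averaged 6.66 in B6 vHPC and 0.69 in B6 mPFC, but -2.78 and -2.19 in D2. Mndal, an interferon-inducible gene, averaged 5.41 and 0.99 in B6 against -3.41 and -3.21 in D2. In both genes the D2 levels were near the lower end of the table in each region, where a regional difference is not measurable. Klk8 (neuropsin) was different, at -3.21 ± 0.10 in B6 and 0.65 in D2 with D2 means of 1.44 in vHPC and 2.19 in mPFC. Ebf3 was higher in vHPC in B6 (-1.67 ± 0.22) and had the opposite sign in D2 (1.95). Over all shared genes, 93 were without overlap in opposite directions in the strains, and 6 were counted in opposite directions.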
